A study of Mus musculus with 4 samples.

Results

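The genes described here are splicing factors and heterogeneous nuclear ribonucleoproteins (hnRNPs) in activated lung group 2 innate lymphoid cells (ILC2s). They were taken by name, as every protein-coding gene whose symbol starts with Srsf, Sf3a, Sf3b or Prpf and a number, or with Hnrnp, Snrp or U2af. The rule found 68 of the 22558 genes in the count table. They comprised 11 SR protein genes, 20 hnRNP genes, 3 U2AF genes, 8 genes of the Sm ring, 4 further genes named Snrp, 9 SF3A and SF3B genes and 13 PRPF genes.

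RNA sequencing was performed on sorted lung ILC2s, with 2 libraries from WT mice (C57BL/6) and 2 from mice labelled ICAM-1 KO, a constitutive germline deficiency (B6.129S4-Icam1 tm1Jcgr/J). All mice were 6 weeks old and received 3 intranasal challenges of 0.5 µg rmIL-33, and lungs were collected on day 4. Each library was a pool of 4 mice, sorted as CD45+ ST2+ CD127+ cells without lineage markers of T, B, myeloid, erythroid and FcεRIα+ cells. Because mice were pooled, the spread between 2 libraries does not show the spread between animals, and a comparison of 2 against 2 single values cannot go below an exact permutation p of 0.333.

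Splicing removes introns from precursor RNA and is carried out by the spliceosome, which is built from small nuclear ribonucleoproteins (snRNPs). A ring of Sm proteins surrounds the RNA of the U1, U2, U4 and U5 snRNPs, U2AF recognizes the end of the intron and brings in U2, SF3A and SF3B are parts of U2, and PRPF proteins act in the U4/U6.U5 tri-snRNP and in the steps that activate the spliceosome. SR proteins mostly promote the use of an exon and hnRNP proteins often oppose it, while hnRNPs also package, export and stabilize RNA.

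The libraries held between 24796148 and 28782471 counts. The targeted gene Icam1 was not lower in the ICAM-1 KO-labelled libraries, whose counts were 2812 and 3453 against 2579 and 2630 in WT. Its log2 fold change was 0.33 ± 0.108 (SE) with an edgeR adjusted p of 0.0745. This RNA therefore does not check the genotype, and the samples are called ICAM-1 KO-labelled libraries here. At the protein level, the paper reports that its ICAM-1-deficient mice lack ICAM-1, from flow cytometry of lung ILC2s. The ILC2 genes Il7r, Il1rl1 and Gata3 were measured in every library at normalized counts of 250 or higher. Genes of the CD3 complex, a T cell protein in the lineage gate, were also measured, with log2 fold changes of 1.49 for Cd3d (edgeR adjusted p 0.00796), 0.17 for Cd3e (0.69) and -0.33 for Cd3g (0.158).

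The first 3 sequences shown are the promoters of Hnrnpab, Hnrnpa1 and Hnrnpd, the 3 hnRNP genes that were lower in the ICAM-1 KO-labelled libraries. Each is the 250 bases before the RefSeq start site on the strand of the gene (GRCm38.p6), at chr11:51606882-51607131, minus strand, for Hnrnpab, at chr15:103240147-103240396, plus strand, for Hnrnpa1 and at chr5:99978939-99979188, minus strand, for Hnrnpd. Capitals mark the letters CCAAT, the CCAAT box, and CGGAAG, the core of many ETS factor sites, or their reverse strands ATTGG and CTTCCG.
Hnrnpab promoter: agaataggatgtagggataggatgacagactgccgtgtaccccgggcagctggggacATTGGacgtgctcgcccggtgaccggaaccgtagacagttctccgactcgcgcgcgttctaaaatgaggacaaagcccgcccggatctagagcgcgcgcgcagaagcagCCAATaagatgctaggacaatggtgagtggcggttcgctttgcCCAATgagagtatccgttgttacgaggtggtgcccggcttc
Hnrnpa1 promoter: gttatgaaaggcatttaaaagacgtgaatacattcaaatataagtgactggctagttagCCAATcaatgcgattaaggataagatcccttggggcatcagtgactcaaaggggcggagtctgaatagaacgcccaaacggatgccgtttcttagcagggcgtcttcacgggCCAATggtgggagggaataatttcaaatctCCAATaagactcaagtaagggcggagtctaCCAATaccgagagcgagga
Hnrnpd promoter: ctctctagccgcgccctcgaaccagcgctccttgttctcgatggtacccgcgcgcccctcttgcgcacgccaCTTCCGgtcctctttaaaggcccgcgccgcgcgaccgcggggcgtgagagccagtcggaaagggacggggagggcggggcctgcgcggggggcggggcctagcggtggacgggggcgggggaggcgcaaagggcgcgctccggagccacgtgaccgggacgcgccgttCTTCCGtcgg

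The window of Hnrnpa1 held 4 matches to CCAAT and that of Hnrnpab 3, while Hnrnpd held 2 matches to CGGAAG and no CCAAT. Of the 68 genes, 59 had a RefSeq promoter that could be searched. A gene was counted if any of its windows held a match, and a gene with several start sites had several windows. CCAAT or ATTGG stood in 29 of these 59 genes, or 49.2%, against 37.5% of all 27025 RefSeq genes searched. These 27025 were not limited to genes expressed in these cells. Of the 8 searched genes that were called lower, 6 held it. CGGAAG or CTTCCG stood in 54.2% of the 59 genes and in 15.3% of all genes searched, but in only 2 of the 8. The GC box GGGCGG, read on both strands, stood in 67.8% of the 59 against 35.4%, the E-box CACGTG in 11.9% against 6.86%, and TATAAA in 10.2% against 14.3%. These are matches of letters and were not tested as binding sites.

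Splicing factor genes were strongly expressed in these cells. Levels between genes are compared here in TPM, a length-scaled share of all transcripts, which was computed from the counts and the median transcript length of each gene and so is a level per length. Across the 66 genes that passed the filter on low counts, the mean level ran from 2.83 TPM for Prpf40b to 1454 TPM for Hnrnpa2b1, with a median of 117 TPM, against a median of 20.5 TPM over all 11711 genes that passed. The median by role was 240 TPM for the Sm ring, 194 TPM for hnRNPs, 190 TPM for SR proteins, 124 TPM for the U1 and U2 proteins named Snrp, 105 TPM for SF3A and SF3B, 97.6 TPM for U2AF and 38.1 TPM for PRPF proteins.

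The highest level per length belonged to Hnrnpa2b1, which binds RNA in the nucleus and sorts it for transport, followed by Hnrnpk at 807 TPM, Hnrnpf at 728 TPM, Hnrnpab at 651 TPM and Srsf5 at 605 TPM. Hnrnpk encodes a protein that binds runs of C, and Hnrnpf one that binds runs of G. By normalized count, which is not per length, Hnrnpu, a nuclear matrix protein, took the place of Srsf5 among the top 5. The highest level within other roles was Snrpb at 600 TPM, U2af1 at 262 TPM, Sf3b6 at 226 TPM and Snrpa1 at 183 TPM.

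**Figure D1:**
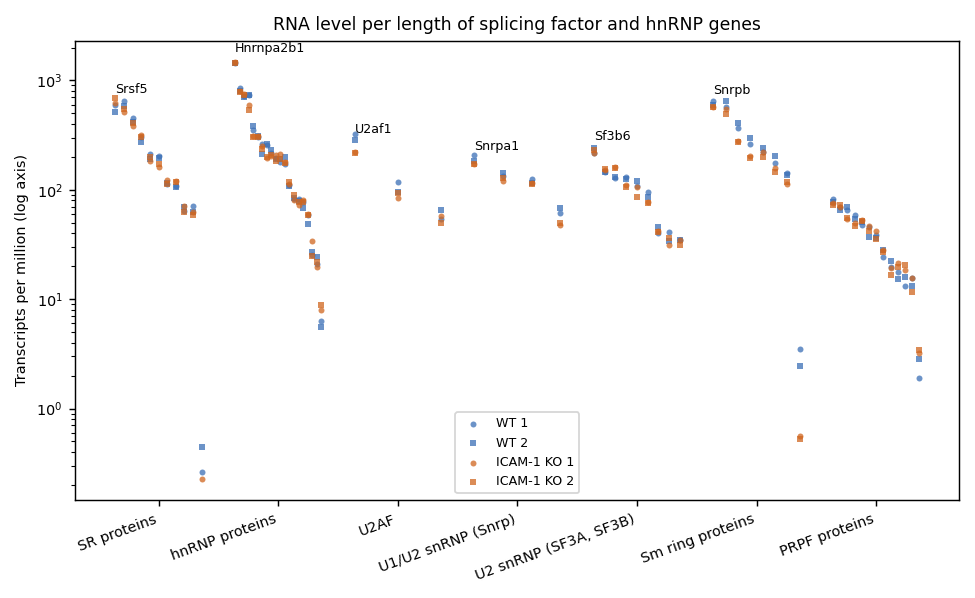
RNA level per length in each library (TPM, log axis) for the 68 genes, sorted from high to low within each role, with circles and squares for the 2 libraries of each group and the gene with the highest level named except for PRPF proteins. Hnrnpa2b1 stands highest at a mean of 1454 TPM and Srsf12 lowest at 0.234 TPM, and 1 library with no Srsf12 count is not drawn. Snrpn, at a mean of 1.77 TPM, and Prpf40b, at 2.83 TPM, are the next lowest.

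All 68 genes together took 1.71% of the counts in each WT library and 1.60% in each of the ICAM-1 KO-labelled libraries. In TPM their summed level was 13776 and 13587 in WT and 12907 and 12648 in ICAM-1 KO. The summed level of the Sm ring was 2400 and 2527 TPM in WT and 2105 and 2002 TPM in ICAM-1 KO, and that of U2AF 493 and 445 TPM against 366 and 360 TPM. For SR proteins the groups overlapped, with 2776 and 2523 TPM in WT and 2565 and 2670 TPM in ICAM-1 KO. In pooled cells, fewer cells of a type and less RNA per cell cannot be told apart.

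The comparison of the ICAM-1 KO-labelled libraries with WT asks whether the RNA of activated ILC2s differs with ICAM-1. Of the 66 genes tested, 9 were lower and 0 were higher in ICAM-1 KO at an adjusted p under 0.05 (edgeR quasi-likelihood test, Benjamini-Hochberg over 11711 genes). The background was 4.97% of all genes lower and 8.80% higher, and 9 of 66 is 13.6%. At an unadjusted p under 0.05 in edgeR, 18 were lower (background 13.1%) and 1, Sf3b1, was higher (background 17.1%). With DESeq2, 17 were lower and 1 higher, where the background was 7.94% and 10.8%. None of the 66 was changed by 2-fold or more, a threshold that 0.538% of all genes passed downward and 4.94% upward.

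The differences were modest and mostly in 1 direction. The log2 fold change was negative for 50 of the 66 genes, or 75.8%, against 48.8% of all genes tested, and the median was -0.16 against 0.01. Both ICAM-1 KO-labelled libraries lay below both WT libraries for 40 of the 66 (background 31.3%) and above them for 6 (background 28.3%). The count was lowest without the second WT library, when only U2af1 of the 9 still passed, while all 9 kept their negative sign. Leaving out any other library gave 5 or 6 genes lower.

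The ICAM-1 KO-labelled libraries also held more RNA of genes listed as markers of several other lung cell types. The part of this in the values of the splicing genes was not tested, and neither was the cell type that made this RNA. The paper cites Chil3 and Cxcl15, here in the macrophage and epithelial lists, as expressed by lung ILC2s that produce IL-10. Chil3 had normalized counts of 211 and 423 in WT and 1052 and 1423 in ICAM-1 KO, a large part of its list's sum. The background was 8.80% of all genes higher and 4.97% lower. Of the tested marker genes, 8 of 12 alveolar and airway epithelial genes, 7 of 12 T cell genes, 5 of 8 B and plasma cell genes, 9 of 11 macrophage and dendritic cell genes and 5 of 9 endothelial and stromal genes rose. Of 11 granulocyte and mast cell genes 5 rose and 2, Epx and Prg2, fell. Epx had 1027 and 739 counts in WT and 0 and 0 in ICAM-1 KO, and Prg2 1583 and 1041 against 33 and 118. The summed normalized count of the macrophage and dendritic cell list was 473 and 678 in WT and 1559 and 2195 in ICAM-1 KO, that of the B and plasma cell list 1592 and 4003 against 6652 and 10143, that of the T cell list 764 and 835 against 1195 and 1398, that of the epithelial list 492 and 278 against 729 and 1625, that of the endothelial and stromal list 114 and 148 against 273 and 328, and that of the granulocyte and mast cell list 583 and 522 against 610 and 732. The ILC2 list summed to 9190 and 9664 in WT and 7828 and 8001 in ICAM-1 KO. In it 5 of 15 genes were lower (Arg1, Id2, Il5, Il2ra and Il13) and 2 higher (Klrg1 and Ptprc). Il1rl1, which encodes ST2, and Il7r, which encodes CD127, had log2 fold changes of 0.21 and 0.28 and were not called. Gata3, at -0.14, was not called either. The proliferation list summed to 3077 and 3239 in WT against 2788 and 2663 in ICAM-1 KO, with 2 of 13 genes lower. Of 13 immediate early and heat shock genes 3 rose, the heat shock genes Hspa1a by 2.50 and Hspa1b by 2.24 and Egr1 by 0.56 on the log2 scale (edgeR adjusted p 0.0011, 0.000634 and 0.0342). The summed normalized count of this list was 5100 and 3867 in WT and 3960 and 4723 in ICAM-1 KO, and its part in the splicing values was not tested either. Of 85 marker genes, 0 had a count of 0 in every library, and 4 (Sftpb, Cldn18, Epx and Ly6g) had a count of 0 in at least 1.

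**Figure D2:**
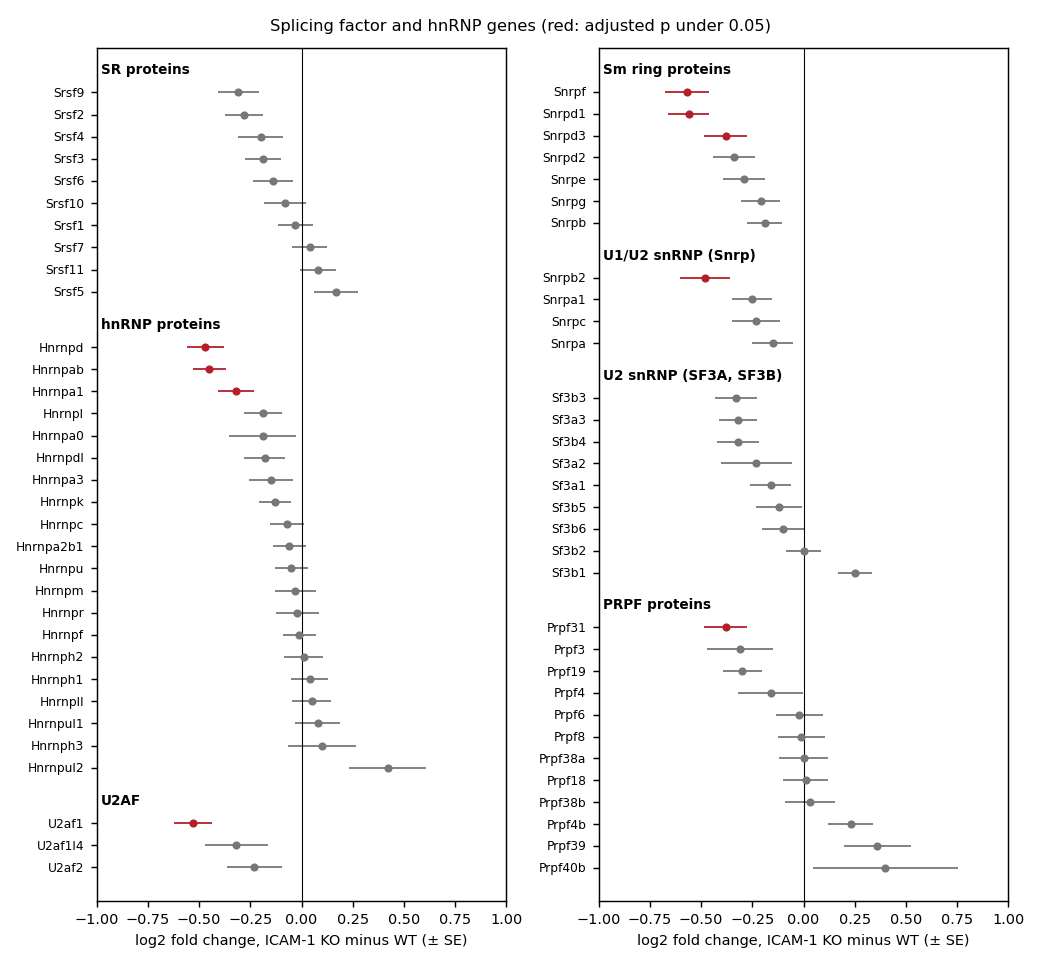
Difference between the groups for 65 of the 66 genes tested, as the log2 fold change of ICAM-1 KO over WT with its standard error (horizontal axis), by role and sorted within each role. The 9 genes in red had an adjusted p under 0.05 in edgeR, and all tested genes of the Sm ring, the U1 and U2 proteins named Snrp and U2AF lie to the left of 0.

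Of the 7 Sm ring genes tested 3 were lower (42.9%, background 4.97%), the highest share of any role. All 7 had both ICAM-1 KO-labelled libraries below both WT libraries (background 31.3%). The log2 fold changes ran from -0.57 to -0.19 with a median of -0.34. Snrpf (chr10:93583029-93589706), which encodes the SmF protein, had normalized counts of 127 and 148 in WT and 90.6 and 91.4 in ICAM-1 KO. Both ICAM-1 KO values lay together and below WT, where the libraries were further apart. Snrpf fell by 0.57 on the log2 scale (SE 0.108, edgeR adjusted p 0.0118). Of the 861 exon bases of Snrpf, 567 are shared with Ccdc38 on the opposite strand, and the use of strand in counting is not given in the sources used here. Ccdc38 itself had between 14 and 34 counts in each library.

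Snrpd1, which encodes SmD1, had normalized counts of 139 and 156 in WT and 97.3 and 98.8 in the ICAM-1 KO-labelled libraries. The groups were apart, and the mean was 147 ± 11.9 in WT and 98.0 ± 1.05 in ICAM-1 KO (SD, n = 2 each). Snrpd1 fell by 0.56 on the log2 scale (SE 0.1, edgeR adjusted p 0.00951), or 32.2% by the fit. Snrpd3 (chr10:75517551-75537381), which encodes SmD3, had 170 and 203 in WT and 143 and 138 in ICAM-1 KO. The gap between the groups was smaller than the gap between the WT libraries, and the call had an adjusted p of 0.0448 in edgeR at a log2 fold change of -0.38 ± 0.106 (SE). This call was lost with library totals as the only scaling, with an older quasi-likelihood method and with no filter.

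The other 4 Sm ring genes tested did not pass in edgeR, while Snrpd2 and Snrpe passed as lower with DESeq2 and Snrpd2 also with limma. Snrpd2 was nearest, with 114 and 113 in WT and 84.4 and 91.6 in ICAM-1 KO, where the log2 fold change was -0.34 ± 0.101 (SE) with an edgeR adjusted p of 0.0584. The log2 fold change was -0.29 for Snrpe, -0.21 for Snrpg and -0.19 for Snrpb, the most abundant gene of the ring, and each had an adjusted p of 0.0899 or more in edgeR.

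The eighth Sm ring gene, Snrpn (chr7:59982495-60140219), was set apart by its low level and by the size of its difference. Snrpn encodes SmN, a close relative of SmB made by Snrpb, and is an imprinted gene known for its expression in brain. It had estimated counts of 120 and 90 in WT and 17 and 18 in the ICAM-1 KO-labelled libraries, so that each WT library was far above both ICAM-1 KO libraries. The normalized count was 3.44 ± 0.786 in WT and 0.613 ± 0.0103 in ICAM-1 KO (SD, n = 2 each), which is 5.61-fold higher in WT. Its summed normalized count of 8.10 was below the minimum of 10, and it was not tested in the reported fit. With all genes of at least 10 counts in every library tested instead, its log2 fold change was -2.51 ± 0.512 (SE) with an edgeR adjusted p of 0.0143, where 0.504% of all genes passed as lower by 2-fold or more. With no filter the values were -2.56 ± 0.519 and 0.0666, and the call was lost.

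Reads of Snrpn can be shared with other genes. Snurf, the upstream reading frame on the same transcripts, shares 216 exon bases with it on the same strand and had counts of 0, 5, 0 and 2 in the 4 libraries, and Gm38393 shares 589 bases. Snhg14, the long non-coding RNA that continues from the same locus, had counts of 19 and 13 in WT and 5 and 25 in ICAM-1 KO, and these groups overlapped. The first 90 coding bases of Snrpb and Snrpn are shown because reads of the pair must be told apart by their mismatches, which are in capitals (GENCODE M21, mm10, on the strand of each gene).
Snrpb coding start: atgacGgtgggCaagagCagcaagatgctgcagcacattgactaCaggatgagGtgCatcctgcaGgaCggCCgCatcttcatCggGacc
Snrpn coding start: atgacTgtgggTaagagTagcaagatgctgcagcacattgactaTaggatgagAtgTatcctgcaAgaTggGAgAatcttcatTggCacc

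These 90 bases differed at 13 positions. Over the whole alignment the coding sequences, of 693 bases for Snrpb and 720 for Snrpn, were identical in 558 of 720 columns (77.5%), and the longest identical run was 32 bases. Snrpb had 12783 and 12620 counts in WT and 9967 and 11403 in ICAM-1 KO. Per length, the group means were 624 and 576 TPM for Snrpb and 3.00 and 0.546 TPM for Snrpn in WT and ICAM-1 KO.

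**Figure D3:**
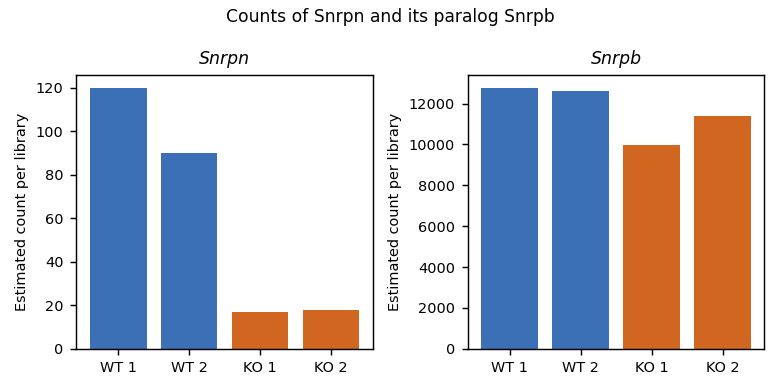
Estimated counts of Snrpn (left) and Snrpb (right) in each of the 4 libraries, as bars from 0 on separate vertical axes. Snrpn had 120 and 90 counts in WT and 17 and 18 in ICAM-1 KO, while Snrpb had between 9967 and 12783 in every library.

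The 4 further genes named Snrp encode proteins particular to U1 (Snrpa, Snrpc) or U2 (Snrpa1, Snrpb2). All 4 had both ICAM-1 KO-labelled libraries below both WT libraries (background 31.3%). The edgeR test called 1 of the 4 lower (background 4.97%). Snrpb2 (chr2:143063039-143072853), which encodes the U2 protein U2B'', had normalized counts of 70.3 and 80.4 in WT and 50.7 and 55.1 in ICAM-1 KO. It fell by 0.48 on the log2 scale (SE 0.123, edgeR adjusted p 0.0342). Snrpa1, which encodes the partner of this protein in U2, had 144 and 132 in WT and 111 and 116 in ICAM-1 KO, with a log2 fold change of -0.25 and an adjusted p of 0.12 in edgeR.

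U2AF genes recognize the end of the intron, and 1 of 3 was lower (33.3%, background 4.97%). U2af1 (chr17:31647082-31658754), whose product reads the AG at the intron end, had normalized counts of 177 and 162 in WT and 114 and 116 in the ICAM-1 KO-labelled libraries. Both ICAM-1 KO values were well below WT and close to each other. U2af1 fell by 0.53 on the log2 scale (SE 0.0948, edgeR adjusted p 0.00949), or 30.8%. Its paralog U2af1l4 had a log2 fold change of -0.32 ± 0.154 (SE), and 1086 of its 1656 exon bases are shared with Gm49396 on the same strand. U2af2, whose product binds the run of pyrimidines beside the AG and pairs with U2AF1, had 63.3 and 78.2 in WT and 62.8 and 56.0 in ICAM-1 KO. The 2 groups of U2af2 nearly touched, and its log2 fold change of -0.23 ± 0.134 (SE) had an edgeR adjusted p of 0.295.

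Of the 9 SF3A and SF3B genes, 0 were called in edgeR (background 4.97% lower and 8.80% higher). At an unadjusted p under 0.05 in edgeR, 3 were lower (background 13.1%) and 1 was higher (background 17.1%). With DESeq2 after adjustment, 3 were lower (background 7.94%) and 1 was higher (background 10.8%). The median log2 fold change was -0.16. Sf3b1, which encodes the largest SF3B subunit and contacts the branch point region, had 440 and 465 normalized counts in WT and 518 and 535 in the ICAM-1 KO-labelled libraries. Both ICAM-1 KO libraries were above WT, and the log2 fold change of 0.25 ± 0.0822 (SE) had an adjusted p of 0.0796 in edgeR. It passed as higher with DESeq2 and with library totals as the only scaling. Sf3a3, Sf3b3 and Sf3b4 lay on the other side with log2 fold changes of -0.32, -0.33 and -0.32. All 3 passed as lower with DESeq2, and Sf3a3 also with limma.

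Of the 20 hnRNP genes, 3 were lower (15.0%, background 4.97%) and the median log2 fold change was -0.06. Hnrnpab (chr11:51600100-51606847), a relative of Hnrnpd that binds RNA and DNA, had normalized counts of 825 and 855 in WT and 620 and 589 in the ICAM-1 KO-labelled libraries. The groups were clearly apart, with means of 840 ± 21.3 and 605 ± 21.7 (SD, n = 2 each). Hnrnpab fell by 0.45 on the log2 scale (SE 0.0798, edgeR adjusted p 0.00945), or 26.7%. It shares 809 exon bases with Phykpl on the opposite strand, which had normalized counts between 16.1 and 24.2.

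Hnrnpd (chr5:99955935-99978938) encodes AUF1, which binds AU-rich elements and takes part in the decay of cytokine RNAs. It had normalized counts of 261 and 277 in WT and 185 and 197 in the ICAM-1 KO-labelled libraries. The spread within each group was much smaller than the gap, and Hnrnpd fell by 0.47 on the log2 scale (SE 0.0889, edgeR adjusted p 0.0118). Hnrnpa1 (chr15:103240432-103246692), which opposes SR proteins at many splice sites, had 342 and 383 in WT and 282 and 287 in ICAM-1 KO. It fell by 0.32 on the log2 scale (SE 0.0895, edgeR adjusted p 0.0447), the smallest change among the 9. The call of Hnrnpa1 was lost with library totals, with an older quasi-likelihood method and with no filter.

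Other abundant hnRNP genes, the highest by normalized count beside Hnrnpab, did not pass the test. Hnrnpa2b1 had 1328 and 1380 normalized counts in WT and 1271 and 1279 in ICAM-1 KO, and its log2 fold change was -0.06 ± 0.0801 (SE). For Hnrnpk the counts were 1264 and 1221 against 1114 and 1122, with a log2 fold change of -0.13. Both genes had ICAM-1 KO below WT in every library but did not pass, with an edgeR adjusted p of 0.662 and 0.327. Hnrnpf and Hnrnpu had log2 fold changes of -0.01 and -0.05, and that of Hnrnpf was positive, at 0.03, when library totals were the only scaling. Hnrnpul2 had the highest value, 0.42 ± 0.189 (SE), with an edgeR adjusted p of 0.175.

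Of the 10 SR protein genes tested, 0 were called in edgeR (background 4.97% lower and 8.80% higher). At an unadjusted p under 0.05 in edgeR, 2 were lower (background 13.1%) and 0 higher (background 17.1%). With DESeq2 2 were lower, Srsf2 and Srsf9 (background 7.94%), and both also passed as lower with limma. The median log2 fold change was -0.11. Srsf5, the most abundant per length, had normalized counts of 503 and 440 in WT and 481 and 559 in the ICAM-1 KO-labelled libraries, so the groups overlapped. Srsf3, the most abundant by count and the smallest SR protein, had 657 and 626 in WT and 525 and 576 in ICAM-1 KO, with a log2 fold change of -0.19 ± 0.0877 (SE) and an edgeR adjusted p of 0.176. Srsf2 had 587 and 543 against 432 and 479, with values of -0.28 ± 0.0916 and 0.0726. Srsf12 was close to undetected, with 13, 24, 10 and 0 counts in the 4 libraries, where a count of 0 allows up to 3 by counting error only, and it was not tested.

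Of the 13 PRPF genes, 1 was lower (7.69%, background 4.97%) and the median log2 fold change was -0.01. Prpf31 (chr7:3629985-3642486), whose product holds U4/U6 and U5 together in the tri-snRNP, had normalized counts of 114 and 126 in WT and 87.2 and 92.9 in the ICAM-1 KO-labelled libraries. It fell by 0.38 on the log2 scale (SE 0.104, edgeR adjusted p 0.0417), and shares 984 exon bases with the non-coding Gm15927 on the opposite strand. The call of Prpf31 was lost with library totals as the only scaling and with no filter. Prpf8, which encodes the core protein around the catalytic centre, had 99.8 and 120 in WT and 106 and 107 in ICAM-1 KO, and the groups overlapped.

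**Figure D4:**
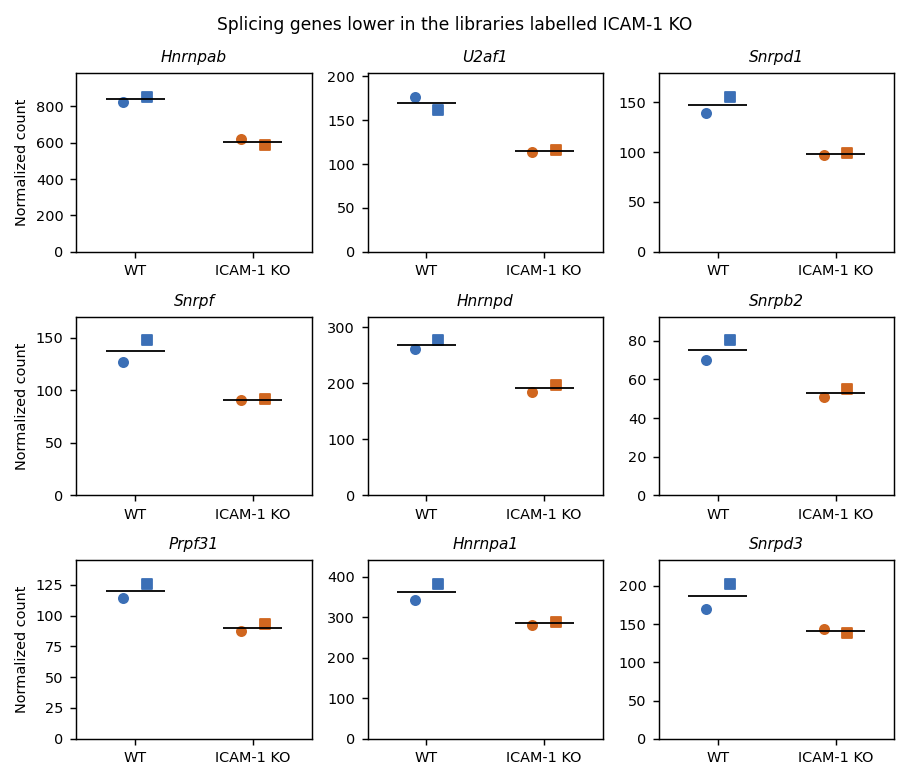
Normalized counts in each library for the 9 genes with an adjusted p under 0.05, with circles and squares for the 2 libraries of each group, black lines for the group means and vertical axes that start at 0. In each of the 9 panels both ICAM-1 KO libraries lie below both WT libraries, by 32.5% for Snrpf down to 20.1% for Hnrnpa1 in the fit.

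Other genes of the pathway were listed by function. Of 55 tested genes for other snRNP and spliceosome proteins, 5 were lower (9.09%, background 4.97%) and 0 higher (background 8.80%), and the median log2 fold change was -0.13. At an unadjusted p under 0.05 in edgeR, 13 of the 55 were lower (background 13.1%) and 1 was higher (background 17.1%). Snu13, which binds the kinked stem of U4 RNA, fell by 0.47 on the log2 scale (edgeR adjusted p 0.0117) and Snrnp40, a U5 protein, by 0.45 (adjusted p 0.0171). Eif4a3, a subunit of the exon junction complex and the highest of the list per length at 270 TPM, fell by 0.36 (adjusted p 0.0258). The highest by normalized count, Eftud2, the GTPase of U5, had a log2 fold change of -0.22 and an adjusted p of 0.134 in edgeR.

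LSM proteins form rings like the Sm ring, around U6 RNA or at the ends of decaying messenger RNA. Of the 10 LSM genes tested 3 were lower (30.0%, background 4.97%) and the median was -0.30. Lsm4, the highest of the list by normalized count and per length, had 150 and 132 normalized counts in WT and 96.7 and 99.2 in the ICAM-1 KO-labelled libraries. It fell by 0.50 on the log2 scale (edgeR adjusted p 0.0157), Lsm7 by 0.48 (adjusted p 0.0219) and Lsm2 by 0.42 (adjusted p 0.0488). Of the 10, 7 had both ICAM-1 KO libraries below both WT libraries (background 31.3%).

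Of 41 other regulators of splice site choice tested, 4 were higher (9.76%, background 8.80%) and 1 lower (2.44%, background 4.97%), and the median was 0.04. These shares were near or below those of all genes. Rbm39, an SR-like coactivator, had 310 and 310 normalized counts in WT and 382 and 390 in the ICAM-1 KO-labelled libraries, and rose by 0.34 on the log2 scale (edgeR adjusted p 0.0264). Mbnl2, a muscleblind protein, rose by 0.44 (edgeR adjusted p 0.0355) and Rbm5 by 0.39 (adjusted p 0.0413). Ybx1, the highest of this list by normalized count, and Rbm3, the highest per length at 728 TPM, had log2 fold changes of -0.10 and -0.18 and adjusted p-values of 0.521 and 0.243 in edgeR.

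Of 8 SR protein kinases and transporters tested, 1 was higher (12.5%, background 8.80%). Clk1, a kinase that phosphorylates SR proteins in the nucleus, had 146 and 158 normalized counts in WT and 215 and 210 in the ICAM-1 KO-labelled libraries. Both ICAM-1 KO libraries were above WT, and Clk1 rose by 0.51 on the log2 scale (SE 0.0901, edgeR adjusted p 0.009). Over the 4 lists together, 9 of 114 genes tested were lower (7.89%, background 4.97%) and 5 higher (4.39%, background 8.80%).

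**Figure D5:**
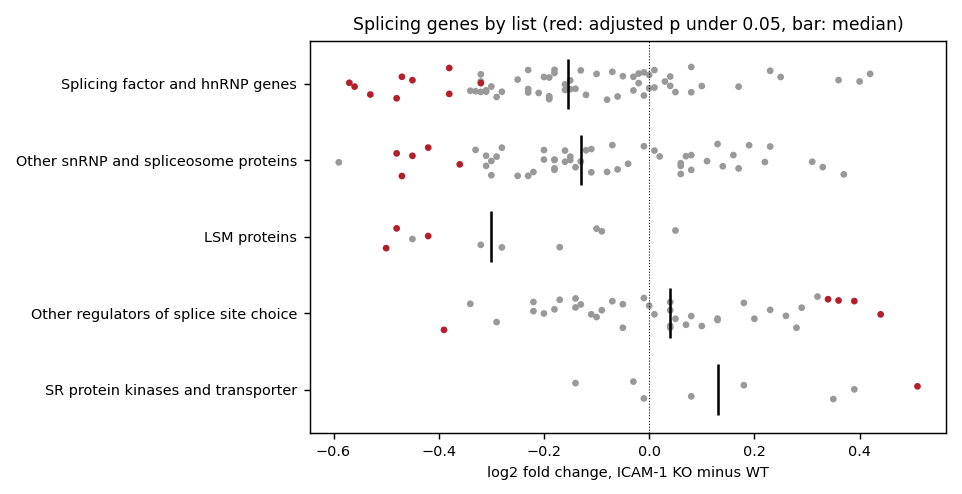
Log2 fold change of ICAM-1 KO over WT (horizontal axis) for each tested gene of the splicing factor and hnRNP genes and of the 4 other lists, in red where the edgeR adjusted p was under 0.05, with a bar at the median. The medians run from -0.30 for LSM proteins to 0.13 for SR protein kinases and the transporter.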

How the data were processed

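The deposited estimated counts of the authors, which are expected counts per gene, are not normalized, and a read matching several genes was divided among them. The authors' processing notes name CASAVA 1.8.2, STAR 3.5.3 and Partek, with mm10. The methods give another STAR release and GENCODE annotation, and the E/M counting of Partek is named in the deposited table. The deposited normalized signal of the authors follows upper quartile normalization, with values equal to the count plus 1 times 1 factor per library. Normalized counts given here are these values. Coordinates are the deposited ones, with the end moved by 1 base.

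Counts were rounded and tested with edgeR 4.0.16 in R 4.3.3 (glmQLFit with legacy FALSE, upper quartile factors, no covariate) for 11711 genes whose normalized count averaged 1 or more and summed to 10 or more. SEs come from the log2 fold change and its F statistic. TPM used the median length of each gene's basic GENCODE M21 transcripts. The script was tested on simulated data. Of the 68 genes, 58 had a count that was not whole (tolerance 0.01) in at least 1 library, and 27 share exon bases with another gene, 23 of them on the opposite strand and 7 on the same strand. Alternatives were TMM factors, library totals, DESeq2 1.42.0, limma 3.58.1 (log2 of the normalized count plus 1), the older quasi-likelihood method, other filters, a replicate block and leaving out each library.

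Genes were named if called (in the other lists, up to 3), untested, changed by 2-fold or most abundant in a role or list, and 2 genes that met this rule are not reported here. The genes, roles and lists were chosen with earlier results of these data known. Sf3b1, Sf3a3, Sf3b3, Sf3b4, Snrpd2, Snrpe, Snrpg, Srsf2, Srsf9, U2af2, U2af1l4, Prpf8, Prpf40b, Hnrnpul2, Snurf, Snhg14, Eif4a3, Rbm3, Hspa1a, Hspa1b, Egr1, Epx, Prg2, Cd3d, Cd3e, Cd3g, Il7r, Il1rl1 and Gata3 were named after their values were seen. So were Chil3, Cxcl15, Arg1, Id2, Il5, Il2ra, Il13, Klrg1 and Ptprc.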

Additional observations from a re-analysis of the deposited data

How the results depend on the processing

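All 9 genes called lower kept their sign under every alternative run, and the adjusted p passed for all 9 with TMM factors, DESeq2, limma, at least 10 counts in every library and the replicate block. The replicate block, tried because both groups carry replicates 1 and 2, gave 9 genes lower. The libraries with one number did not deviate together (r = -0.0582), so the numbers were not taken as pairs. With library totals 6 were lower and 1 (Sf3b1) higher, and the median of all genes moved from 0.01 to 0.05. Hnrnpa1, Prpf31 and Snrpd3 lost the call there. The older quasi-likelihood method gave 7 lower, without Hnrnpa1 and Snrpd3. DESeq2 gave 17 lower and 1 higher, and no filter 5 lower, without Hnrnpa1, Prpf31, Snrpb2 and Snrpd3. With at least 10 counts in every library 1 gene, Snrpn, passed at 2-fold. Leaving out 1 library gave 1 to 6 lower genes, with 1 left without WT replicate 2 and 5 without WT replicate 1. Of the other splicing genes, 9 were lower and 5 higher, against 3 higher with limma, 1 lower and 0 higher with no filter, and 1 to 4 lower and 0 to 3 higher when 1 library was left out. Hnrnpf changed sign, with a log2 fold change of 0.03 with library totals and from -0.02 to 0.00 when 1 library was left out, and so did Ybx1, with -0.23 to 0.01, the highest value in both cases without ICAM-1 KO replicate 1. The share of counts on the 68 genes was lower by -0.109 percentage points, or -0.098 of the counts on protein-coding genes. Among the single genes, 300 values kept direction and side of the threshold, 67 lost the call, 2 gained it and 3 changed sign. The causes were not tested.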

Other observations

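The name rule left out non-coding rows with related names. Snrpert, listed beside the Sm ring genes by name, had 193 and 223 counts in WT and 110 and 140 in the ICAM-1 KO-labelled libraries, with a log2 fold change of -0.67 and an edgeR adjusted p of 0.197. Hnrnpa1l2-ps had a count in 1 library only.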
